A study of Mus musculus with 19 samples.

Results

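The potassium channel genes of the mouse hippocampus are described here at the level of RNA and of ribosome footprints, in mice with and without the fragile X gene Fmr1. The members were all rows of the gene tables whose symbol starts with Kcn, and there were 79 of them among 14459 genes. No measured value was used to choose them. All 79 symbols were found in the RefSeq gene table. By the letters after Kcn they fall into 27 pore subunits of voltage-gated channels (Kcna, Kcnb, Kcnc, Kcnd, Kcnh and Kcnq), 9 electrically silent subunits (Kcnf, Kcng, Kcns and Kcnv), 8 pore subunits of the Kcnma, Kcnn, Kcnt and Kcnu families, 13 inward rectifiers (Kcnj), 11 two-pore-domain leak channels (Kcnk) and 11 accessory subunits (Kcnab, Kcne, Kcnip and Kcnmb).

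Potassium channels let potassium leave the cell and so pull the membrane back toward rest. In hippocampal pyramidal cells, Kv1 and Kv7 channels (Kcna and Kcnq genes) hold back spike initiation, Kv4 channels with their KChIP and DPP partners damp dendritic signals, and Kv3, BK and SK channels (Kcnc, Kcnma1 and Kcnn genes) shape spike repolarisation and the potential that follows it. Inward rectifiers and leak channels set the resting potential, and in astrocytes Kcnj10 clears potassium from the extracellular space. FMRP, the RNA-binding protein that Fmr1 encodes, is known to bind certain channel mRNAs and also some channel proteins directly.

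The study profiled ribosome footprints (RPF, the stretches of mRNA that a ribosome shields from nuclease) and cytoplasmic RNA in brain slices from male C57BL/6 mice, postnatal day 28 to 35. The 2 genotypes were Fmr1 KO, in which the gene is disrupted in every cell, and wild type (WT). Each replicate pooled 8 to 10 slices of 400 µm from 6 to 8 mice, kept at 30 °C for 3 to 4 h and then given 100 µg/ml cycloheximide, which stalls ribosomes. RNA was taken from a part of each lysate and footprints from the rest. The source name reads as hippocampal and cortical slices, whereas the protocol describes hippocampal slices with CA3 removed. The tables held 3 KO and 4 WT libraries of each assay. Another 5 samples of the series were not analysed here.

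Estimated counts, in units of 1e6, summed to 4.97 to 9.96 per RNA library and to 15.6 to 22.7 per footprint library. Fmr1 itself, the targeted gene, had 44.4 ± 1.53 footprint TPM (transcript copies scaled by gene length and library total) in WT and 4.81 ± 0.222 in KO (mean ± SD, n = 4 and 3), and 17.3 ± 1.46 against 4.42 ± 0.771 TPM in RNA, so each library matched its label. Neuronal markers were abundant, with footprints of 5 listed genes summing to 7346 to 7565 TPM in WT and 7321 to 7364 in KO. The lowest values of the tables lay between 0.880 and 1.00 TPM in every library, so a gene near 1 TPM cannot be told from an absent one. On that scale 15 of the 79 members had a WT footprint mean under 3 TPM, and 9 had an RNA mean under 3 TPM.

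Footprints of 16 of the 79 members differed between genotypes, 14 lower and 2 higher in KO (edgeR quasi-likelihood test, Benjamini-Hochberg adjusted p under 0.05 over all genes tested). As a share this was 20.3%, close to the 18.5% of all 14438 genes tested that passed, so the number of changes in itself is not a result about these genes. The directions were unequal: 17.7% of members were called lower, against 10.4% of all genes, and 2.53% were called higher, against 8.15% of all genes. The lower share moved when 1 library was left out: 6 members (7.59%) were called lower without KO library 3, against 7.3% of all genes, 8 (10.1%) without KO library 1, against 7.28%, and 9 (11.4%) without WT library 3, against 9.03%. Without WT library 2 or WT library 4 there were 7 (8.86%), against 7.77% and 7.72% of all genes. Without KO library 2 there were 12 (15.2%), against 8.65%, and without WT library 1 there were 10 (12.7%), against 8.53%. DESeq2 also called 7 lower (8.86%), against 7.9% of all genes, and limma on log2(TPM + 1) 9 (11.4%), against 10.3%. The replicate set covariate gave 8 (10.1%), against 8.05%, and the replicate block 6 (7.59%), against 6.06%. Under each of these alternatives 2 members (2.53%) were called higher, against 2.97 to 8.87% of all genes. The log2 fold change of KO over WT lay below 0 in 60 of 79 members, with a median of -0.07 against -0.00 over all genes tested. The called changes were small, from -0.25 to 0.29 on the log2 scale. In each of the 16, no KO library overlapped a WT library. This adds no support to the calls, since the genes were picked by a test on these same libraries. The 63 members that did not pass lay between -0.33 and 0.17.

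**Figure D1:**
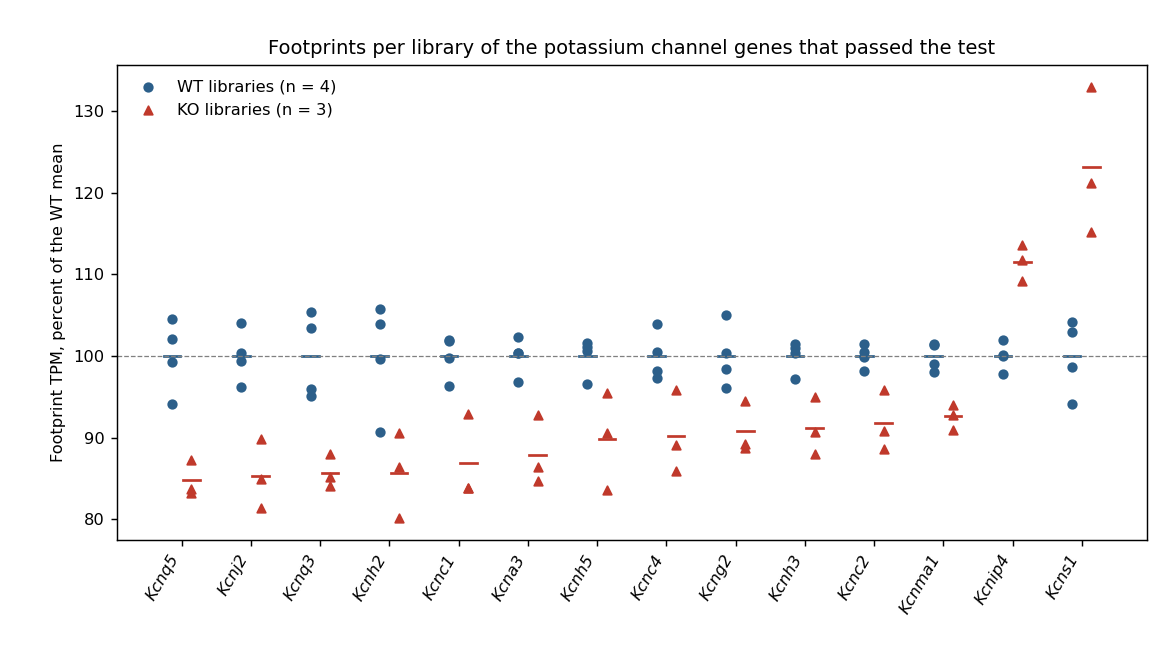
Footprint level of 14 of the 16 potassium channel genes that passed the test, each library as a percent of the WT mean of its gene (vertical axis), with genes ordered by fold change; circles are the 4 WT and triangles the 3 KO libraries, short bars the group means, and the dashed line marks 100%. The KO libraries lie below every WT library for 12 genes and above every WT library for Kcnip4 and Kcns1, in genes picked by a test on these same libraries.

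The sequences upstream of the largest called changes are given to place these genes in the genome: the 2 largest decreases, Kcnq5 and Kcnj2, and both increases, Kcns1 and Kcnip4. Each run is the 250 bases before the RefSeq transcription start (build GRCm38.p6), 5′ to 3′ on the gene's own strand, with the GC box (GGGCGG or its complement CCGCCC) in capitals. Kcnq5 and Kcnip4 have 2 listed starts each, of which the first was used.
Kcnq5, chr1:21962651-21962900, minus strand: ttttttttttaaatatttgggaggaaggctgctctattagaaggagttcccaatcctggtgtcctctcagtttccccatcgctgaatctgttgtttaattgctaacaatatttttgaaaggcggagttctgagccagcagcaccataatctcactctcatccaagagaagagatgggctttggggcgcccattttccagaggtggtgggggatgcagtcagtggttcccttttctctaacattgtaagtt
Kcnj2, chr11:111065914-111066163, plus strand: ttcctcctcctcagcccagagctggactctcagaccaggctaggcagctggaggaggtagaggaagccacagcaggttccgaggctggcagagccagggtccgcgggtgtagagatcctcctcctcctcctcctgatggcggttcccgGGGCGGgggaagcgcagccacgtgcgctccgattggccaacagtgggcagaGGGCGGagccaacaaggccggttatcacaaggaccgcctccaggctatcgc
Kcns1, chr2:164171114-164171363, minus strand: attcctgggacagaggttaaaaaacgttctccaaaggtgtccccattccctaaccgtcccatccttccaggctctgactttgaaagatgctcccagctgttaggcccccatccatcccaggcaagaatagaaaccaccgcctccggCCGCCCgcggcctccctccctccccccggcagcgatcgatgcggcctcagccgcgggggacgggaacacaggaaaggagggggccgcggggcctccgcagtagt
Kcnip4, chr5:49285660-49285909, minus strand: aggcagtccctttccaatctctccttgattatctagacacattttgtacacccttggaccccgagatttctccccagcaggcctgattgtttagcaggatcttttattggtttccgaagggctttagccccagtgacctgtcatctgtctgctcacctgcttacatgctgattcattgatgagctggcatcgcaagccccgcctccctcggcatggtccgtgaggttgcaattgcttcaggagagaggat
The windows of Kcnq5 and Kcnip4 held no GC box and were 44.4% and 51.2% G or C, whereas that of Kcnj2 held 2 boxes at 65.6% and that of Kcns1 held 1 box at 63.2%. Of the 79 members 57 had an entry in this promoter table. Their median content of G and C was 61.6% (range 42.4 to 83.6%), against 52.0% over all 27018 windows. Those windows were not limited to the 14459 genes measured here, so the sets are unlike. A GC box on either strand occurred in 32 of the 57 (56.1%), against 32.9% of all windows. The E-box CACGTG occurred in 4 of the 57 (7.02%), Kcnj2 among them, against 6.05% of all windows, and the cyclic AMP element TGACGTCA in none of the 57, against 1.62%. The study measured nothing at promoters, and these matches are descriptions of letters only.

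Among the voltage-gated pore subunits, footprints of 11 of 27 fell in KO and none rose, where 10.4% of all genes fell and 8.15% rose, and the log2 fold change was below 0 in 24 of the 27, with a median of -0.08. At an unadjusted p under 0.05 the same test passed 11 of them (40.7%), against 31.3% of all genes. Without KO library 3 the number that passed was 5, without WT library 2 or WT library 4 it was 6, without KO library 1 it was 7, and DESeq2 passed 5. Over all genes, these omissions of 1 library also lowered the share that passed, to between 12.5 and 13.3%.

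The Kcnq genes encode Kv7 subunits, which carry the M current, a slow brake on repeated firing. Footprints of Kcnq5 and Kcnq3 fell. Kcnq5 had 18.6, 19.6, 19.2 and 17.7 TPM in the 4 WT libraries and 15.6, 16.4 and 15.7 TPM in the 3 KO libraries, so the groups stood well apart. Its log2 fold change was -0.25 ± 0.05 (SE, here and below; adjusted p = 0.00462), while its RNA level was 34.2 ± 1.34 TPM in WT and 34.0 ± 2.13 in KO (-0.02 ± 0.06). Kcnq3, a subunit of the M channel of the forebrain, had 16.5, 17.8, 16.3 and 18.1 footprint TPM in WT and 14.4, 15.1 and 14.6 in KO (-0.23 ± 0.05, adjusted p = 0.00972). The highest KO library lay below the lowest WT library. RNA of Kcnq3 had a fold change of -0.16 ± 0.05 and did not pass (adjusted p = 0.0797). Both footprint calls held under all 16 alternatives that were run at the same threshold, among them each of the 7 omissions of a library.

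The Kcnc genes encode Kv3 subunits, which open at high voltage and let fast-spiking cells fire at high rates. Footprints of Kcnc1, Kcnc2 and Kcnc4 fell. Kcnc1 had 41.4, 43.8, 43.8 and 42.9 TPM in WT and 36.1, 40.0 and 36.0 in KO (-0.21 ± 0.05, adjusted p = 0.0092). KO library 2 was the highest of the KO libraries and was still below the lowest WT library. Kcnc2 went from 36.3 ± 0.499 to 33.3 ± 1.35 TPM (-0.13 ± 0.04, adjusted p = 0.0366). Kcnc4 went from 20.6 ± 0.603 to 18.6 ± 1.04 TPM (-0.15 ± 0.04, adjusted p = 0.0322).

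RNA of these 3 Kcnc genes did not pass. Kcnc1 RNA had 128, 114, 109 and 117 TPM in WT and 95.5, 88.1 and 110.0 in KO and missed the threshold (-0.25 ± 0.07, adjusted p = 0.0691). It passed in 2 of the 16 alternatives, with DESeq2 (adjusted p = 0.0368) and without KO library 3 (adjusted p = 0.00575), and the largest adjusted p was 0.251. Kcnc2 RNA had a fold change of 0.04 ± 0.05 and Kcnc4 RNA of -0.11 ± 0.06. The footprint calls of Kcnc2 and Kcnc4 were lost under 11 and 10 of the 16 alternatives (largest adjusted p 0.131 and 0.128), and Kcnc1 footprints under none. The footprint fold change of each of the 3 stayed below 0 under all 16.

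The Kcnh genes encode the EAG, ERG and ELK channels. Footprints of Kcnh2, Kcnh3 and Kcnh5 fell, and the fold change lay below 0 in all 8 genes, with a median of -0.10. Kcnh2, the ERG channel that also repolarises the heart, had 5.24, 6.11, 5.76 and 6.01 TPM in WT and 5.00, 5.24 and 4.64 in KO. WT library 1 and KO library 2 almost met, at a fold change of -0.23 ± 0.06 (adjusted p = 0.0265). Kcnh3, an ELK channel of the forebrain, had 9.79 ± 0.190 TPM in WT and 8.93 ± 0.345 in KO (-0.14 ± 0.04, adjusted p = 0.0399). Kcnh5, an EAG channel, had 7.08 ± 0.163 and 6.36 ± 0.423 TPM (-0.16 ± 0.05, adjusted p = 0.0428). The most abundant member, the ERG-type Kcnh7, did not pass (22.2 and 21.1 TPM, -0.08 ± 0.04, adjusted p = 0.167). The calls of Kcnh2, Kcnh3 and Kcnh5 were lost under 8, 12 and 11 of the 16 alternatives (largest adjusted p 0.0901, 0.159 and 0.235). None of the 3 passed with DESeq2, either limma fit or the replicate block. Nor did any of the 3 pass when KO library 3, WT library 2 or WT library 4 was left out. The fold change lay below 0 in 6 of the 8 without KO library 3 and in 7 without WT library 3.

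Of the remaining voltage-gated subunits only Kcna3 passed. Kcna3, a Kv1 subunit found in neurons and in immune cells including microglia, had 16.8, 17.2, 16.9 and 16.3 TPM in WT and 14.2, 15.6 and 14.5 in KO (-0.19 ± 0.05, adjusted p = 0.0177). It missed the threshold without KO library 1 or KO library 3 and with DESeq2 (largest adjusted p 0.0897). The axonal Kv1 subunits Kcna1 and Kcna2, the most abundant of the family, had fold changes of -0.04 ± 0.04 and -0.07 ± 0.03, with 61.3 and 58.4 TPM in WT. The other three Kcna genes lay between -0.07 and -0.04. Kcnb2, a Kv2 pore subunit, had 7.39 ± 0.279 TPM in WT and 7.38 ± 0.444 in KO and did not pass (-0.01 ± 0.05). Kcnd2, which encodes the Kv4.2 channel of CA1 dendrites, had 56.3, 55.3, 59.9 and 57.2 TPM in WT and 57.9, 53.6 and 52.3 in KO. These overlapped, and the difference did not pass (-0.08 ± 0.04, adjusted p = 0.213).

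**Figure D2:**
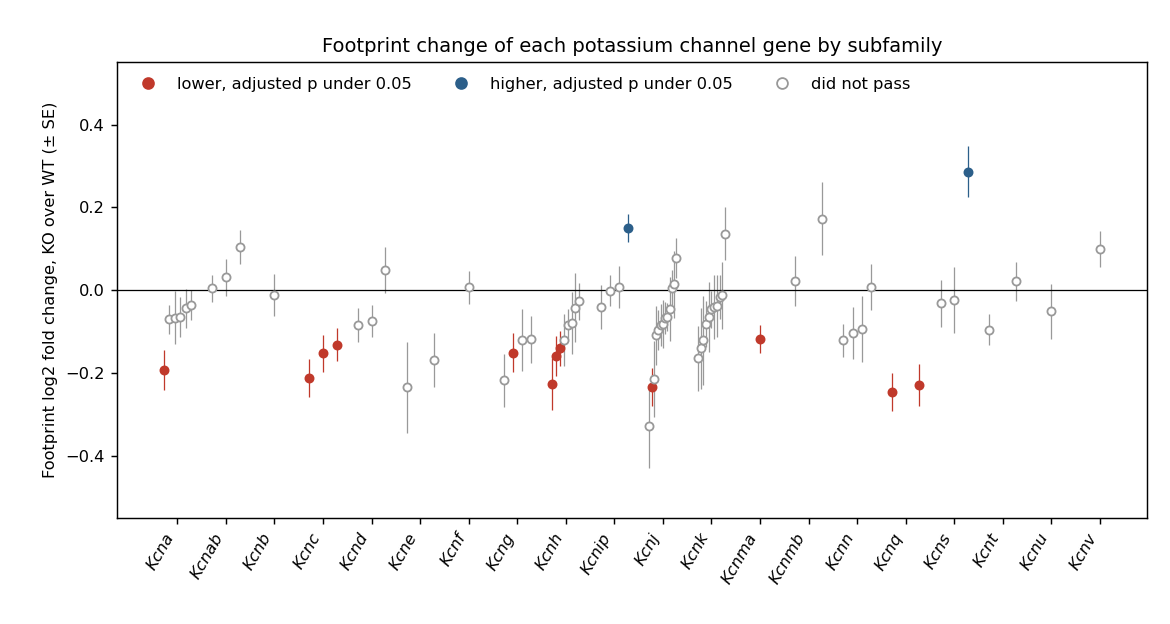
Footprint log2 fold change of KO over WT (vertical axis) for 75 of the 79 genes by subfamily (horizontal axis); filled points passed the test at an adjusted p under 0.05, open points did not, and bars are the SE. Kcnc1, Kcnc2, Kcnc4, Kcnq3 and Kcnq5 are among the points filled below 0, whereas no Kcnk gene is filled.

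The 9 electrically silent subunits do not form channels by themselves but join Kv2 subunits and alter their gating. Kcns1 rose, with 6.57, 6.27, 6.94 and 6.86 footprint TPM in WT and 8.07, 8.86 and 7.67 in KO. All KO libraries lay above all WT libraries, and the fold change of 0.29 ± 0.06 was the largest increase among the members (adjusted p = 0.0085). Kcns1 RNA had 25.8 ± 1.64 TPM in WT and 26.8 ± 0.118 in KO (0.04 ± 0.07). The call rested on KO library 2, the highest of the 3, without which the adjusted p was 0.0706. Within the Kcns family the share of footprint TPM that fell on Kcns1 was 26.3% ± 0.453 in WT and 30.7% ± 0.891 in KO, and that on Kcns2, the most abundant, 60.0% ± 0.765 and 56.2% ± 1.47. Kcng2 fell from 17.0 ± 0.647 to 15.4 ± 0.547 TPM (-0.15 ± 0.05, adjusted p = 0.0434), a call lost under 11 of the 16 alternatives (largest adjusted p 0.221). That call was kept, among the omissions of 1 library, without KO library 2 alone. Kcng2 RNA had 102, 96.8, 95.6 and 103 TPM in WT and 74.8, 81.4 and 92.9 in KO (-0.25 ± 0.07, adjusted p = 0.06). Kcnf1 (0.01 ± 0.04) and Kcnv1 (0.10 ± 0.04), each the lone gene of its family in the tables and among the more abundant silent subunits at 57.3 and 46.2 TPM in WT, did not pass.

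Of the 8 genes for BK, SK and Slack-type channels, which open with intracellular calcium or sodium (Kcnu1 with alkaline pH), 1 passed. That is a share of 12.5%, against 18.5% of all genes. Kcnma1, the pore of the BK channel, had 34.9, 36.1, 36.0 and 35.2 footprint TPM in WT and 33.0, 33.4 and 32.3 in KO (-0.12 ± 0.03, adjusted p = 0.0297). The groups did not overlap, but the call was lost under 10 of the 16 alternatives (largest adjusted p 0.121), and among the omissions of 1 library it was kept only without KO library 2 or WT library 1. Kcnn2, the SK2 channel of the after-hyperpolarisation and of dendritic spines, came close with 36.4, 36.5, 38.7 and 37.1 TPM in WT and 33.3, 35.3 and 34.6 in KO (-0.12 ± 0.04, adjusted p = 0.0543). Kcnt2, a sodium-activated channel, had -0.10 ± 0.04 (adjusted p = 0.094). Kcnu1, the pH-sensitive Slo3 channel known from sperm, was near the floor at 2.01 TPM.

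Among the 13 inward rectifiers, 1 fell (7.69%), where 10.4% of all genes fell. Kcnj2, the Kir2.1 channel that stabilises the resting potential, had 25.5, 27.6, 26.6 and 26.4 footprint TPM in WT and 23.8, 21.6 and 22.5 in KO. The lowest WT library lay above the highest KO library, at a fold change of -0.23 ± 0.05 (adjusted p = 0.00535) that passed under all 16 alternatives. Kcnj2 RNA was 19.4 ± 1.96 TPM in WT and 17.2 ± 2.23 in KO, with overlapping libraries (-0.19 ± 0.10, adjusted p = 0.292). The related Kir2 gene Kcnj4 had 39.4 ± 2.39 TPM in WT and 41.8 ± 1.02 in KO (0.08 ± 0.05, adjusted p = 0.326). Kcnj10, the astrocyte Kir4.1 channel and the most abundant of the family, ranged from 172 to 202 TPM in WT and from 172 to 195 in KO (-0.08 ± 0.06). The subunits of the G-protein-gated GIRK channels Kcnj3, Kcnj6 and Kcnj9 had fold changes of -0.06, -0.07 and -0.08, and none passed. Kcnj13, a channel of the choroid plexus, had the lowest fold change of the members (-0.33 ± 0.10) at 2.34 TPM in WT, near the floor, and did not pass (adjusted p = 0.196).

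None of the 11 two-pore-domain leak channels passed in edgeR at the adjusted threshold, which 18.5% of all genes passed. At an unadjusted p under 0.05 none passed either, where 31.3% of all genes did, and DESeq2 also passed none. One of the limma fits, on log2 TPM, passed 1 of them. Kcnk1, the most abundant, had 100.2 ± 4.90 footprint TPM in WT and 97.6 ± 2.26 in KO (-0.05 ± 0.04). The TASK channel gene Kcnk9 had 26.2 ± 1.17 and 26.0 ± 1.90 TPM (-0.02 ± 0.05). Kcnk13, a leak channel known from microglia, had 3.35 ± 0.268 and 3.26 ± 0.293 TPM (-0.04 ± 0.08).

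Among the 11 accessory subunits 1 rose (9.09%) and none fell, where 8.15% of all genes rose and 10.4% fell. Their median fold change was 0.01. Kcnip4 encodes KChIP4, a calcium-binding partner of Kv4 channels whose variants include one that slows their inactivation. It had 189.7, 194, 194 and 198 footprint TPM in WT and 220.2, 212 and 217 in KO. The lowest KO library exceeded the highest WT library, at a fold change of 0.15 ± 0.03 (adjusted p = 0.00901) that passed under all 16 alternatives. Kcnip4 RNA had 46.6 ± 4.70 TPM in WT and 46.7 ± 4.48 in KO, with the libraries of both groups interleaved (-0.01 ± 0.09). The reverse was seen in Kcnip2, which encodes KChIP2. Its RNA fell from 234, 231, 228 and 229.8 TPM in WT to 205, 183 and 203 in KO (-0.23 ± 0.06, adjusted p = 0.0311), while its footprints overlapped at 76.1 ± 3.34 and 76.8 ± 3.66 TPM (0.01 ± 0.05). The Kcnip2 RNA call was lost under 8 of the 16 alternatives (largest adjusted p 0.124), and among the 7 omissions of 1 library it was kept only without KO library 3. Within the Kcnip family, Kcnip4 took 42.4% ± 0.492 of footprint TPM in WT and 45.0% ± 0.515 in KO.

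The other accessory genes did not pass. Kcnab2, a Kv1 beta subunit and the most abundant member in both assays, had 450.1 ± 8.85 footprint TPM in WT and 454 ± 8.90 in KO (0.00 ± 0.03). Kcnab1, the beta subunit that speeds Kv1 inactivation, had 111, 109, 112 and 112 TPM in WT and 129, 112 and 119 in KO, with KO library 1 the highest (0.10 ± 0.04, adjusted p = 0.103). Kcnip3, which encodes KChIP3, also known as DREAM, had a fold change of -0.00 ± 0.04. The BK beta subunit gene Kcnmb2 (0.17 ± 0.09) and the KCNE subunit genes Kcne4 (-0.23 ± 0.11) and Kcne1l (-0.17 ± 0.07) had larger standard errors.

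RNA was tested for 74 of the 79 members, since Kcne4, Kcnj5, Kcnj13, Kcnk7 and Kcnn4 had too few RNA counts for the filter. It fell in 2, Kcnip2 among them, and rose in none. As shares of the members tested these are 2.70% and 0%, against 2.77% of all 13877 genes called lower and 2.11% called higher, or 4.89% in either direction, so the share is near the background. DESeq2 also called no member higher, and 15 of the 74 (20.3%) had an unadjusted p under 0.05 in edgeR, against 20.5% of all genes. The median RNA fold change was -0.07 over the members and -0.00 over all genes, with 52 of 74 below 0. Without KO library 3, 5 members passed in RNA, all lower (6.67%), where 3.73% of all genes were called lower and 2.53% higher. With any other library left out none passed, where 0.876 to 1.76% of all genes were called lower and 0.679 to 1.67% higher. Across the 74 genes, footprint and RNA fold changes correlated with Pearson's r of 0.413 and Spearman's rho of 0.401. This is a description over genes that share the same lysates.

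**Figure D3:**
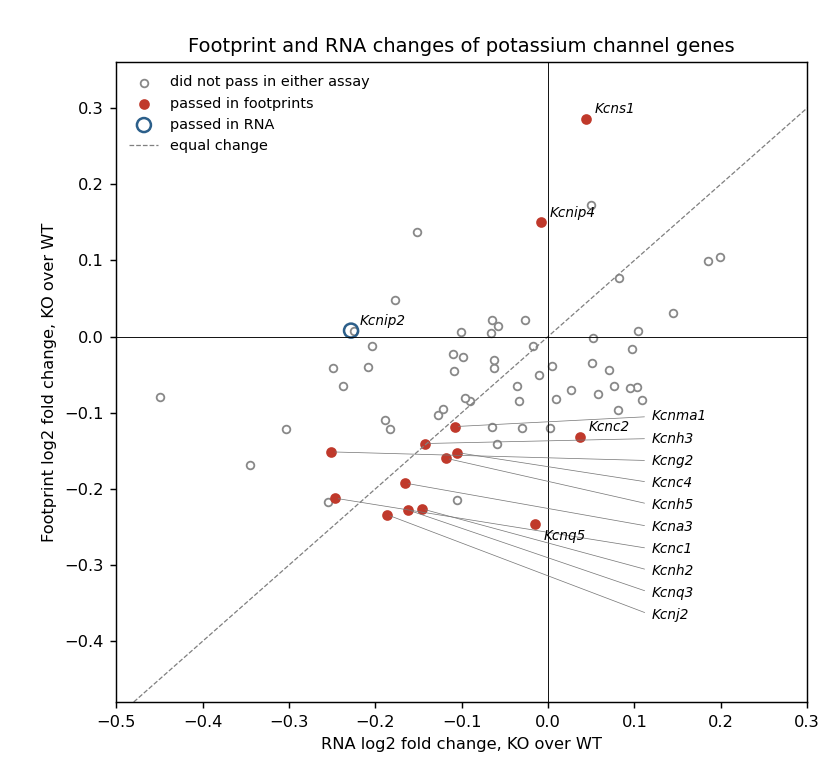
Footprint log2 fold change (vertical axis) against RNA log2 fold change (horizontal axis), KO over WT, for 70 of the 74 members tested in both assays; filled points passed in footprints, large rings passed in RNA, and the dashed line marks equal change. Kcnq5, Kcnip4 and Kcns1 lie near 0 on the RNA axis, and Kcnip2 near 0 on the footprint axis.

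Translational efficiency, the footprint level relative to RNA, was compared in 1 model of the 14 libraries, in which the KO difference could differ between footprints and RNA (the interaction). No member passed in edgeR, DESeq2 or limma. At an unadjusted p under 0.05, 7 of 79 members (8.86%) passed in edgeR, against 10.8% of all genes. Of all 14435 genes 5 passed after adjustment, or 0.0346%. The members with the lowest p were Kcnq5 (-0.24 ± 0.08, adjusted p = 0.204) and Kcnip2 (0.23 ± 0.07, adjusted p = 0.206). For Kcnip4 and Kcns1 the interaction was 0.15 ± 0.09 (adjusted p = 0.589) and 0.24 ± 0.09 (adjusted p = 0.404). That footprints passed and RNA did not is therefore not shown to be a difference between the assays for any of these genes. The standard errors of the interaction were larger, 0.06 to 0.09 for the genes of this paragraph and for Kcnc2, which had -0.18 ± 0.06 (adjusted p = 0.263).

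4 members have a known link to FMRP and were picked for that, with their values already known. FMRP is known to bind the mRNAs of Kcnd2 and Kcnc1, and to bind the channel proteins of Kcnt1 and Kcnmb4. Kcnc1 footprints fell, as given above, and Kcnd2 footprints did not pass. Kcnt1, which encodes the sodium-activated Slack channel, had 7.61, 7.73, 7.89 and 7.26 footprint TPM in WT and 7.72, 8.19 and 7.45 in KO (0.02 ± 0.05, adjusted p = 0.847). Kcnmb4, which encodes the neuronal beta subunit of BK channels, had 29.8, 31.9, 27.7 and 31.6 TPM in WT and 30.6, 29.9 and 31.5 in KO (0.02 ± 0.06, adjusted p = 0.886). In both genes the KO libraries lay within or near the WT range.

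In WT, footprints per RNA differed widely between the channel genes. The ratio of footprint TPM to RNA TPM was taken within each of the 4 WT lysates for the 68 members with a mean of at least 2 TPM in both assays. Its median was -1.27 on the log2 scale, a ratio of 0.416, against -0.37 or 0.773 over the 12480 genes that met the same limits. The ratio of 52 of the 68 members (76.5%) lay below the median of all genes, that of 21 below their 10th percentile (-1.71), and that of 1, Kcnip4, above their 90th (1.00). Only 9 of 68 members (13.2%) had more footprint than RNA TPM, against 35.3% of all genes.

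The ratios of the members spanned 5.59 on the log2 scale, or 48.2-fold, against a median SD between lysates of 0.09. Kcnip4 stood highest at 2.06 ± 0.16 (SD, n = 4), a ratio of 4.18 and the 98.0th percentile of all genes. The next were Kcne4 (0.96 ± 0.39), Kcnab1 (0.72 ± 0.10), Kcnj2 (0.46 ± 0.14) and Kcne1l (0.36 ± 0.26), and neighbours in that order did not differ beyond their spread, except Kcnip4 from Kcne4 and Kcnab1 from Kcnj2. Kcnh3 stood lowest at -3.53 ± 0.05, a ratio of 0.0866. Above it came Kcnn1 (-2.98 ± 0.03), the BK subunit gene Kcnmb4 (-2.78 ± 0.06), Kcnq3 (-2.76 ± 0.08) and Kcng2 (-2.55 ± 0.09), of which Kcnmb4 and Kcnq3 did not differ beyond their spread. All 5 of the highest are accessory subunits or an inward rectifier. Over all members of each group, those under 2 TPM included, the median was -0.11 for the accessory subunits, -1.10 for the voltage-gated pores, -1.16 for the inward rectifiers and -1.39 for the leak channels.

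Members of 1 subfamily could rank differently by RNA and by footprints. Of Kcnh RNA TPM in WT, Kcnh3 made up 48.2% ± 0.826 and Kcnh7 12.0% ± 0.350, whereas of Kcnh footprint TPM they made up 15.6% ± 0.156 and 35.5% ± 0.708. Kcnip2 held 47.3% ± 0.758 of Kcnip RNA and 16.7% ± 0.783 of Kcnip footprints, and Kcnip4 9.54% ± 0.821 and 42.4% ± 0.492. Kcnj10 held 18.7% ± 0.892 of Kcnj RNA and 36.6% ± 1.27 of footprints, whereas Kcnj4 held 23.7% ± 0.862 and 7.53% ± 0.219. In the Kcnc family Kcnc1 held 31.4% ± 0.869 of RNA and 31.7% ± 0.651 of footprints, a gap within the SDs, whereas Kcnc4 held 19.6% ± 0.421 and 15.1% ± 0.439. The deposited tables used one length per gene in both assays, so the ratio takes no account of how much of a transcript is coding.

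**Figure D4:**
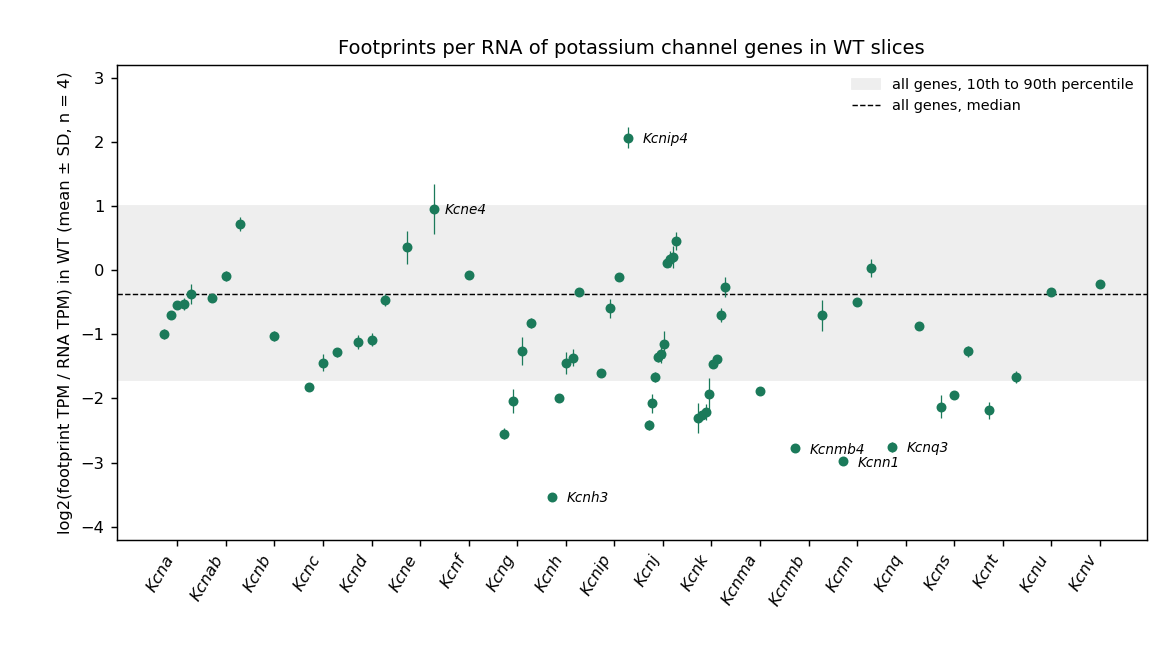
Log2 ratio of footprint TPM to RNA TPM in WT (vertical axis) for 64 of the 68 members with at least 2 TPM in both assays, by subfamily (horizontal axis); points are means over 4 lysates, bars their SD, the dashed line the median of all 12480 genes and the grey band their 10th to 90th percentile. Kcnip4 lies alone at 2.06 and Kcnh3 lowest at -3.53, and 48 of these 64 points lie below the median of all genes, -0.37.

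Genes that work with these channels but carry other symbols were read from the same fits, as a list of 23 auxiliary, anchoring and calcium-sensing genes of which 21 were in the tables. The list was chosen with earlier results of these data known, so its shares beside those of all genes are descriptions and not support. Footprints of 7 fell and 1 rose, where 10.4% of all genes fell and 8.15% rose. With the replicate block, and likewise without KO library 3, 4 fell and none rose. Of all genes, 6.06% fell and 2.97% rose with the block, and 7.3% fell and 5.22% rose without KO library 3. Dpp6, an auxiliary subunit of Kv4 channels, went from 272, 276, 276 and 274 TPM in WT to 223, 235 and 234 in KO (-0.26 ± 0.04, adjusted p = 0.00132). All KO libraries lay below all WT libraries. Cntn2 and Cntnap2, the cell adhesion pair that clusters Kv1 channels along the axon, had fold changes of -0.29 ± 0.05 (adjusted p = 0.0034) and -0.19 ± 0.04 (adjusted p = 0.00511). Lgi1, a secreted protein found in Kv1 complexes, had -0.20 ± 0.03 (adjusted p = 0.00281), and its receptor gene Adam23 -0.12 ± 0.04 (adjusted p = 0.0478). Amigo1, a Kv2 auxiliary subunit, had -0.20 ± 0.05 (adjusted p = 0.0145), and Dlg4, the scaffold PSD-95, -0.13 ± 0.03 (adjusted p = 0.0172).

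Vapa, a membrane protein of the endoplasmic reticulum that binds Kv2 channels, was the partner that rose (0.13 ± 0.03, adjusted p = 0.0133). The footprint calls of Dpp6, Cntn2, Cntnap2 and Lgi1 held under all 16 alternatives. Those of Amigo1, Vapa and Dlg4 were lost without KO library 3 and with the replicate block, that of Dlg4 also without WT library 4, and that of Adam23 under 12. In RNA, Cntn2 (-0.22 ± 0.06) and Lgi1 (-0.22 ± 0.06) fell, with adjusted p = 0.034 and 0.0337, and the calmodulin genes Calm2 (0.40 ± 0.09) and Calm3 (0.39 ± 0.09) rose, with adjusted p = 0.0228 and 0.0297. Of all genes, 2.77% fell and 2.11% rose in RNA. The RNA calls of Cntn2 and Lgi1 were each lost under 10 alternatives, and those of Calm2 and Calm3 without KO library 2 or WT library 4, among others for Calm3. The 3 calmodulin genes encode the same protein from different sequences, and their footprints did not pass, with fold changes of -0.02, -0.03 and 0.05. No partner passed in translational efficiency in edgeR, DESeq2 or limma. At an unadjusted p under 0.05, 5 of 21 (23.8%) passed in edgeR, against 10.8% of all genes.

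Markers of several cell types moved with genotype as well, and their counts stand beside the 10.4% of all genes that fell and the 8.15% that rose. The marker lists too were chosen with earlier results of these data known. Of the 5 neuronal markers Map2 fell (-0.26 ± 0.05, adjusted p = 0.00463) and Tubb3 rose (0.18 ± 0.04, adjusted p = 0.00873), whereas Snap25 (-0.01 ± 0.03), Syt1 (-0.05 ± 0.06) and Rbfox3 (0.06 ± 0.04) did not pass. Footprints of 3 of 6 interneuron markers fell, with sums of 3480 to 3780 TPM in WT and 3262 to 3542 in KO. Pvalb, the marker of the fast-spiking cells in which Kcnc genes are known to be high, was one of them (-0.21 ± 0.07, adjusted p = 0.0402), with Vip (-0.28 ± 0.04) and Cck (-0.18 ± 0.05), whereas Gad1 (0.03 ± 0.05), Gad2 (-0.10 ± 0.03) and Sst (-0.01 ± 0.06) did not pass. All 7 microglial markers fell (sums of 528 to 538 TPM in WT and 430.1 to 468 in KO), as did 3 of 4 markers of oligodendrocyte precursors (143 to 149 and 119 to 127). Of 4 thalamic markers 3 rose (52.9 to 72.4 TPM in WT and 79.4 to 83.4 in KO). Of 4 CA1 markers 1 fell, Wfs1 (-0.41 ± 0.05), with sums of 269 to 275 TPM in WT and 246 to 261 in KO, and 1 of 3 CA3 markers fell, Grik4 (41.1 to 44.0 and 35.9 to 39.0). Of the 3 dentate granule markers 1 fell, C1ql2 (159.7 to 178 and 145 to 157).

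For other cell types the marker sums of the groups overlapped or nearly met. Among astrocyte markers 2 of 7 rose and 2 fell (4713 to 4992 TPM in WT and 4593 to 4795 in KO), and among oligodendrocyte markers 1 of 6 rose and 2 fell (12310.5 to 13679.8 and 12106 to 12659). Of the 5 mural markers 2 fell (172 to 199.9 and 162 to 172), and of the 5 endothelial markers none did (21.9 to 29.9 and 22.6 to 29.5 TPM), 1 having an unadjusted p under 0.05 in edgeR and none passing in DESeq2. Of the 3 choroid plexus genes in the tables, Ttr rose (1.79 ± 0.37) and Kl fell (-0.22 ± 0.07), and the third is the member Kcnj13. No marker was at 0, since the tables have a floor near 1 TPM. In bulk slices, fewer cells of a type and less RNA per cell cannot be told apart, and the part of these markers in the channel gene results was not tested.

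Gene length also ran alongside the changes. Over the 59 members with a WT mean of at least 5 TPM in both assays, the footprint fold change and log2 gene length had a Pearson's r of -0.287 and a Spearman's rho of -0.333. For this pair the value over all genes was not computed. The WT ratio and length had -0.366 and -0.296 over the same 59 genes, and -0.304 and -0.288 over all 12480 genes. These are descriptions across genes of the same libraries. With each library's trend on length removed, 14 members passed in footprints, 12 lower (15.2%) and 2 higher (2.53%), against 9.95% and 9% of all genes. The part of length in the result was not otherwise tested.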

How the data were processed

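The deposited tables hold estimated counts and TPM per gene for 14 libraries, made by the authors with cutadapt 1.7.1, Trimmomatic 0.32, Bowtie2 2.1.0, TopHat2 2.0.9, SAMtools 0.0.19, bedtools and RSEM 1.2.11 on mm10, per the submitters' processing notes; the role of each tool is not given in the sources used here. Within the deposited values, count over TPM is 1 constant per gene times 1 per library, and values end at a floor near 1 TPM. TPM summed to 1.008e6 to 1.014e6 per library, above 1e6. Whether 1 TPM was added to each value is not given in the sources used here. Such an addition would draw the fold changes of members with low TPM toward no change. Deviations of KO footprint library 3 from its group mean correlated at 0.41 and 0.372 with those of WT libraries 1 and 2 and at -0.443 and -0.377 with those of WT libraries 3 and 4. Whether values were adjusted between libraries before deposit is not given in the sources used here. P-values measure only the spread between these pooled samples.

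Counts were rounded and tested with edgeR 4.0.16 (R 4.3.3; quasi-likelihood, robust, filterByExpr with a minimum count of 10, TMM), each assay by itself and translational efficiency as the interaction of assay and genotype. Adjusted p was taken over all genes tested, and one under 0.05 counted as passed. Alternatives were DESeq2 1.42.0, limma 3.58.1 on log2 TPM with and without a pseudocount of 1, other scalings, no filter, a replicate block, a covariate for replicates 1 and 2, a length correction, and each library left out. The scripts were tested on simulated data.

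Whether replicate numbers pair KO with WT is not given in the sources used here. Same-numbered footprint libraries had correlations of deviations of -0.112, -0.00151 and -0.443. These cannot decide it, since an adjustment between libraries before deposit could have removed shared deviations. RNA and footprints with the same number came from 1 lysate, per the labels' protocols.

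Named genes were Fmr1, every member or partner that passed, the most abundant member of each subfamily, and the 5 highest and 5 lowest WT ratios. Further members (Kcna2, Kcnb2, Kcnip3, Kcnj3, Kcnj4, Kcnj6, Kcnj9, Kcnj13, Kcnk9, Kcnk13, Kcnmb2, Kcnt1) were named for known roles, with values seen. Some members are counted in the totals but not reported here by name or in the plots. Members and lists were chosen with earlier results of these data known. Promoter sequences came from RefSeq (GRCm38.p6).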

Additional observations from a re-analysis of the deposited data

Results flagged for a closer look

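The 4 WT libraries of each named gene were checked in both assays for a library whose gap to its nearest neighbour took up nearly all of the group's range (Dixon's criterion at 95%). Of 84 such sets 2 met it, and chance alone gives about 1 set in 20. Kcnc2 RNA was 93.8 TPM in WT library 1 and 86.1 to 87.4 TPM in the other WT libraries. Kcnh3 RNA was 119.1 TPM in WT library 4 and 110.2 to 111.6 TPM in the others.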

How the results depend on the processing

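Members called in footprints numbered 16, and 9 with DESeq2, 10 with the replicate set covariate, 7 at an adjusted p under 0.01, and 8 to 14 with 1 library left out (8 without KO library 3, 9 without WT library 2 or WT library 4, 10 without KO library 1). The shares of all genes called lower and higher also fell, from 10.4% and 8.15% in the main fit. They were 7.9% and 6.5% with DESeq2, 8.05% and 5.46% with the set covariate, and 7.3% and 5.22% without KO library 3. The share of all genes at an adjusted p under 0.01 is not given here, so counts at that threshold have no background beside them. With the replicate block, 8 were called in footprints, 2 higher (2.53%) and 6 lower (7.59%), against 2.97% and 6.06% of all genes. In RNA the block called 0, against 0.526% of all genes higher and 0.944% lower. Whether the numbers pair the genotypes there is not known. In translational efficiency, where the block joins the assays of 1 lysate, the count stayed 0. The RNA count of 2 became 4 with DESeq2, 1 with limma on log2 TPM with or without a pseudocount, 0 with the set covariate, 0 at an adjusted p under 0.01, and 0 to 5 with 1 library left out (5 without KO library 3). Of all genes, 2.08% were lower and 1.78% higher in RNA with DESeq2, 1.52% and 1.09% with the set covariate, and 3.73% and 2.53% without KO library 3. No alternative called a member in translational efficiency. The WT ratio median of -1.27 was -1.33 with 1 TPM subtracted, -0.97 as CPM (counts scaled by library total alone, a shift that is the same for every gene by construction), and -1.30 to -1.20 with 1 lysate left out. The median fold changes moved by less than the SD between KO libraries. The directions that reversed were all of genes that did not pass and had positive values near 0. Kcnt1 footprints were -0.0031 with the block, -0.0174 without KO library 2 and -0.0015 without WT library 4. Kcnmb4 footprints were -0.0036 without KO library 3 and -0.0338 without WT library 3. Kcnip2 footprints were -0.0021 with the block, -0.0015 with the length trend removed, -0.038 without KO library 3, -0.0238 without WT library 3 and -0.0016 without WT library 4. The highest values with 1 library left out kept the positive direction, at 0.0444 for Kcnt1 (without KO library 1), 0.0508 for Kcnmb4 (without WT library 2) and 0.0469 for Kcnip2 (without KO library 1). The causes were not tested. Counted over all alternatives, single-gene results kept their direction and side of the threshold 384 times, lost a call 148 times, gained one 2 times and reversed 10 times. Depth limits the members near 1 TPM, where no fold is informative.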
